A study of Mus musculus with 8 samples.

Results

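The genes described here encode the vacuolar proton pump (V-ATPase), the proteins that assemble it, and the carbonic anhydrases and transporters that work beside it in acidifying epithelia. They were chosen by gene symbol: every symbol starting with Atp6v or Atp6ap, together with Tcirg1, Rnasek, Dmxl1, Dmxl2, Car2, Car4, Car12, Slc9a3 and Slc4a4, with the exon counts of a symbol summed. This gave 35 member genes of 21628 gene symbols that had exon rows. Small RNA was sequenced from mouse sperm, with 4 control libraries and 4 ethanol libraries, in a series on sperm after alcohol intake had stopped. Both groups carry only the labels sperm and control or ethanol; strain, age, dose and length of exposure are not given in the sources used here. The sample codes of ethanol replicates 1 and 2 begin with POM and those of ethanol replicates 3 and 4 with POEM, and the labels do not say what the codes mean. The labels do not state whether replicates were separate animals, and p-values therefore reflect no more than the variation among these 8 libraries, which may be technical. Exon counts in such libraries are counts of short fragments of mRNA.

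The V-ATPase is a rotary pump: its V1 sector, in the cytosol, splits ATP, and its V0 sector, in the membrane, carries the protons across. It acidifies lysosomes and endosomes in most cells, and in the epididymis clear cells and narrow cells place it in their apical membrane to acidify the fluid in which sperm are stored. Carbonic anhydrases supply protons and bicarbonate to the pump and to the transporters, and sperm use the pump in forming the acrosome.

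The deposited table held 4365887 to 4921827 counts per control library and 3481865 to 6975180 per ethanol library. Levels are given as CPM, counts brought to a common library size with edgeR's TMM factors, and 1 count was worth 0.147 to 0.278 CPM. Exons of mRNA took 5.47% to 6.08% of the summed feature counts in control libraries and 9.42%, 30.4%, 7.77% and 10.2% in ethanol replicates 1 to 4, so ethanol replicate 2 stood apart. Of 6545 mRNA exon features tested with edgeR's quasi-likelihood test, 23.8% were higher in ethanol at an adjusted p under 0.05 and 0.153% were lower. The median log2 fold change of these features was 0.88, and this is the background against which the member genes have to be read.

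The members together held 270, 416, 387 and 411 counts in control replicates 1 to 4 and 1289, 2675, 769 and 1440 counts in ethanol replicates 1 to 4. Their summed level was 97.3 ± 19.2 CPM in control and 286.6 ± 189 CPM in ethanol libraries (SD, n = 4 each), and no ethanol library lay as low as any control library. As a percentage of mRNA exon counts the members took 0.117, 0.164, 0.154 and 0.152 in the control libraries and 0.217, 0.262, 0.159 and 0.249 in the ethanol libraries. On this scale ethanol replicate 3 fell inside the control range and the other 3 ethanol libraries lay above it.

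Of the 35 members, 21 had enough counts to be tested, 14 rose in ethanol libraries, 7 did not pass and 0 fell, against the background of 23.8% of mRNA exon features that rose. Estimates above 0 were found for 20 of the 21, where 83.0% of mRNA exon features had one. The members' median log2 fold change was 1.59, with a range of -0.26 to 2.63, against 0.88 for all mRNA exon features tested. In this fit none of the 21 was lower at an unadjusted p under 0.05 either, while with exon features alone Car2 was. Neither the DESeq2 Wald test nor limma-voom called a member lower. In 9 tested members every ethanol library lay above every control library, where 28.7% of mRNA exon features did so. Of the 14 that rose, 8 had groups that did not overlap, and in the other 6 the overlapping library was ethanol replicate 3. Ethanol replicate 2 was the highest library in 20 of the 21 tested members, and ethanol replicate 3 the lowest ethanol library in 15. This order was not counted over all mRNA exon features, which took 30.4% of the counts of ethanol replicate 2, the most of any library.

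These calls depended on the scaling and on single libraries. With exon features fitted alone and scaled among themselves, 1 member rose (Atp6v0e, 1.51 ± 0.30 on the log2 scale, adjusted p = 0.0394), against a background of 0.221%. The members' median was then 0.73 against 0.07 for mRNA exon features, and 17 of 21 were above 0, with Atp6v0a2, Atp6v1f and Dmxl1 turning below 0. An unadjusted p under 0.05 was common: in the fit of all libraries 17 of the 21 members and 3266 of 6545 mRNA exon features had one. Of all 13515 features 4457 had one, a smaller share than of mRNA exon features. Leaving out control replicate 1, 2, 3 or 4 left 0 members past the threshold under edgeR, with 15, 16, 15 and 15 at an unadjusted p under 0.05. Of all features, every RNA class together, 3441 of 15047, 4336 of 15064, 4218 of 15109 and 4353 of 14861 had such a p there. That is not the members' own background, and the count among mRNA exon features was not made in those settings. Hardly any mRNA exon feature rose in those settings either (0%, 0%, 0% and 0.0136%), so the 0 members called are no result about the members. Without ethanol replicate 4 the number was 8, where 13.8% of mRNA exon features rose, and without ethanol replicates 1, 2 and 3 it was 16, 10 and 15, where 28.8%, 14.0% and 36.5% rose. Without the ethanol libraries coded POM 5 members rose (Atp6v0e, Atp6v1c1, Atp6v1e1, Atp6v1g1 and Rnasek), where 7.66% of mRNA exon features did so, and without those coded POEM 15 rose, where 33.1% did so. The DESeq2 Wald test called 15 members, where it called 34.6% of mRNA exon features higher. With limma-voom 0 members and 0% of mRNA exon features passed. There 16 members had an unadjusted p under 0.05, as did 4437 of all 13515 features, every RNA class together.

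**Figure D1:**
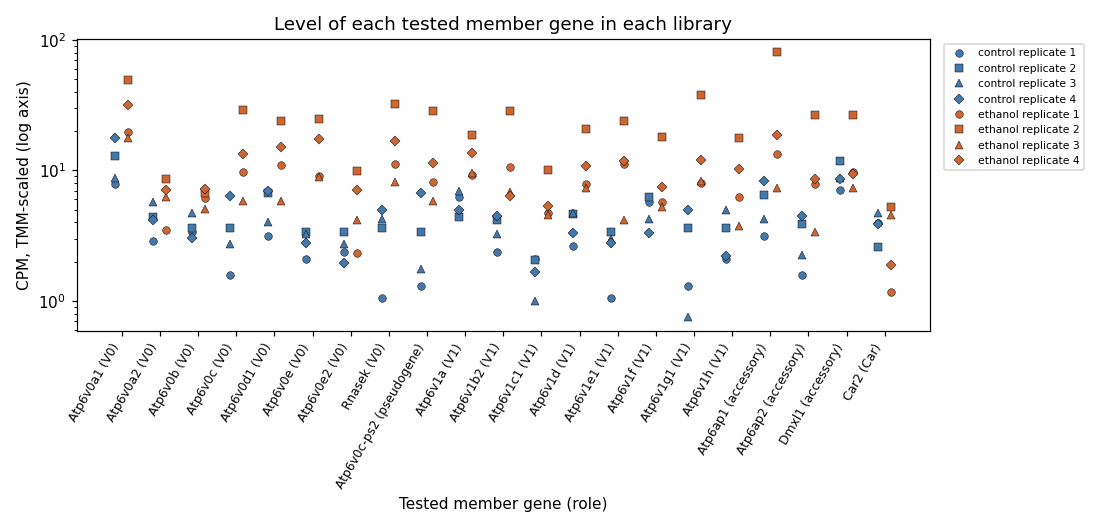
Level of the 21 tested member genes, one column of points per gene on the x axis with its role in brackets, as TMM-scaled CPM on a log y axis. Each point is 1 library, blue for control and orange for ethanol, with the replicate shown by the marker. Squares in orange, ethanol replicate 2, are highest in 20 of the 21 genes, an order not counted over all mRNA exon features.

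**Figure D2:**
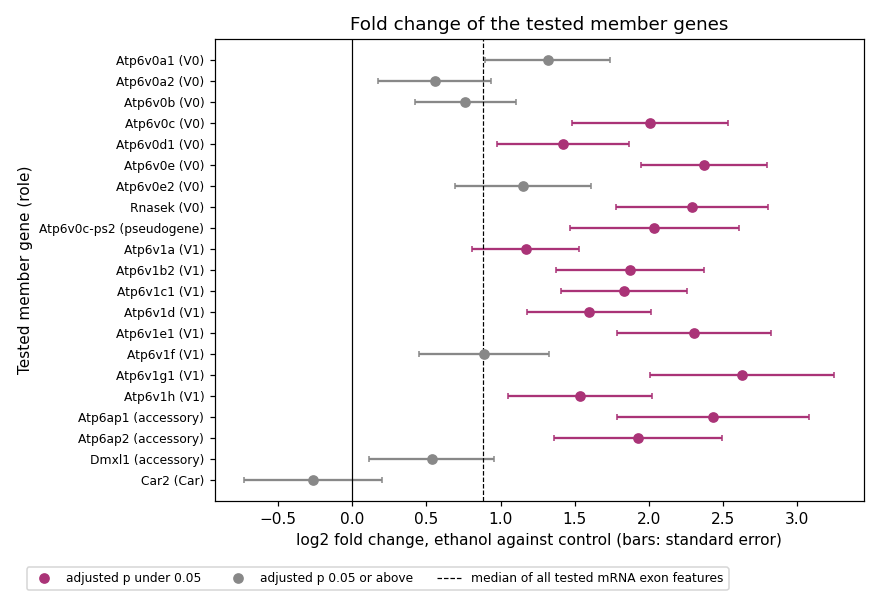
Log2 fold change of ethanol against control for each tested member gene, with bars for the standard error, from the edgeR fit of all features. Of the 21 genes, 14 have an adjusted p under 0.05 and the dashed line is the median of all tested mRNA exon features, 0.88; with exon features scaled among themselves Atp6v0a2, Atp6v1f and Dmxl1 lie below 0.

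The V0 membrane sector had 11 members, of which 8 were tested and 4 rose (Atp6v0e, Rnasek, Atp6v0c and Atp6v0d1), with a median log2 fold change of 1.37. Among mRNA exon features 23.8% rose. With exon features alone 1 of the 8 rose and their median was 0.53. Atp6v0e, the small e subunit of the sector, stood at 2.09, 3.36, 3.25 and 2.78 CPM in control replicates 1 to 4 and at 9.11, 24.8, 8.86 and 17.3 CPM in ethanol replicates 1 to 4. All ethanol libraries lay well above all controls, and the fold change of 2.37 ± 0.42 on the log2 scale (adjusted p = 0.0287) was the one with the smallest p among members. Rnasek, a small membrane protein that is part of the V0 sector, stood at 1.05, 3.62, 4.24 and 5.01 CPM in control libraries and at 11.2, 32.4, 8.11 and 16.8 CPM in ethanol libraries. It rose by 2.29 ± 0.51 (log2, adjusted p = 0.0287), again with no overlap between groups.

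Atp6v0c encodes the proteolipid that builds the rotating proton-carrying ring. Its levels were 1.57, 3.62, 2.75 and 6.40 CPM in control and 9.69, 29.0, 5.85 and 13.3 CPM in ethanol libraries, a log2 fold change of 2.01 ± 0.52 (adjusted p = 0.0304). Ethanol replicate 3 lay below control replicate 4. The pseudogene Atp6v0c-ps2, which entered through its symbol and belongs to no sector, had counts of 63.6% to 104% of those of Atp6v0c in each library and rose alike, by 2.04 ± 0.57 (log2, adjusted p = 0.0341). Its levels were 1.31, 3.36, 1.75 and 6.68 CPM in control and 8.22, 28.4, 5.85 and 11.4 CPM in ethanol libraries. Near-identical copies can share reads, so the values of both are uncertain. Without ethanol replicate 2 the log2 estimates were 1.38 for Atp6v0c and 1.34 for the pseudogene.

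Atp6v0d1, the subunit that joins the ring to the central stalk, rose by 1.42 ± 0.44 (log2, adjusted p = 0.0475), with ethanol replicate 3 at 5.85 CPM inside the control range of 3.14 to 6.95 CPM. Atp6v0a1, the large a subunit that forms the proton half-channels, stood at 7.85, 12.9, 8.74 and 17.8 CPM in control and 19.7, 49.0, 17.7 and 31.6 CPM in ethanol libraries. Its fold change of 1.32 ± 0.42 (log2) missed the threshold (adjusted p = 0.0509) but passed in 8 of 22 alternatives, among them the DESeq2 Wald test (0.0146), over which the adjusted p ran from 0.0142 to 0.29, and ethanol replicate 3 overlapped control replicate 4. Atp6v0b, a second proteolipid of the ring, did not pass (0.76 on the log2 scale, adjusted p = 0.134) although all ethanol libraries, at 5.09 to 7.26 CPM, lay above all controls, at 3.06 to 4.74 CPM. Atp6v0e2 (1.15, adjusted p = 0.0992) and Atp6v0a2 (0.55, adjusted p = 0.315) did not pass either.

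The V1 sector had 13 members, of which 8 were tested and 7 rose, with a median log2 fold change of 1.71, where 23.8% of mRNA exon features rose. In 6 of the 8 all ethanol libraries lay above all controls, as they did in 28.7% of mRNA exon features. With exon features alone 0 of the 8 rose and their median was 0.84, against 0.07 for mRNA exon features. Atp6v1a, the catalytic A subunit that hydrolyses ATP, stood at 6.28, 4.40, 6.99 and 5.01 CPM in control and 9.25, 18.7, 9.62 and 13.7 CPM in ethanol libraries. The groups did not overlap and the change was 1.17 ± 0.36 (log2, adjusted p = 0.0446). Atp6v1b2, the widely expressed B subunit that alternates with A in the head of the pump, stood at 2.36, 4.14, 3.25 and 4.45 CPM in control and 10.6, 28.6, 6.79 and 6.40 CPM in ethanol libraries. It rose by 1.87 ± 0.50 (log2, adjusted p = 0.0314), without overlap, and the estimate was 1.10 without ethanol replicate 2.

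Atp6v1g1 and Atp6v1e1 had the largest estimates of the sector. Atp6v1g1, of the peripheral stalks, had the largest fold change of any tested member, 2.63 ± 0.62 (log2, adjusted p = 0.0287), from 1.31, 3.62, 0.749 and 5.01 CPM in control to 8.08, 37.9, 8.30 and 12.1 CPM in ethanol libraries. Its partner in the peripheral stalks, Atp6v1e1, stood at 1.05, 3.36, 3.0 and 2.78 CPM in control and 11.2, 23.8, 4.15 and 11.8 CPM in ethanol libraries, a rise of 2.30 ± 0.52 (log2, adjusted p = 0.0287). For both genes ethanol replicate 2 was the highest library, and no ethanol library fell among the controls. Without that library the log2 estimate of Atp6v1g1 was 1.79.

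Atp6v1c1, which ties the peripheral stalks to the membrane sector when the pump assembles, stood at 2.09, 2.07, 0.999 and 1.67 CPM in control and 4.70, 10.1, 4.53 and 5.36 CPM in ethanol libraries (log2 fold change 1.83 ± 0.43, adjusted p = 0.0287). Atp6v1d, of the central rotor, stood at 2.62, 4.65, 4.74 and 3.34 CPM in control and 7.93, 20.8, 7.36 and 10.7 CPM in ethanol libraries (1.59 ± 0.42, adjusted p = 0.0304). Neither gene's groups overlapped. Atp6v1h, the subunit that holds free V1 inactive, rose by 1.53 ± 0.49 (log2, adjusted p = 0.0486), with ethanol replicate 3 at 3.77 CPM inside the control range of 2.09 to 4.99 CPM. Atp6v1f, of the rotor, did not pass (0.89, adjusted p = 0.170), and ethanol replicate 2 at 18.1 CPM stood apart from the other ethanol libraries at 5.28 to 7.44 CPM.

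Of the 5 accessory and assembly members 3 were tested and 2 rose, with a median log2 fold change of 1.92, where 23.8% of mRNA exon features rose. With exon features alone 0 of the 3 rose and their median was 0.98. Atp6ap1, a glycoprotein that rides with the pump and helps it assemble, stood at 3.14, 6.46, 4.24 and 8.34 CPM in control and 13.4, 80.6, 7.36 and 18.9 CPM in ethanol libraries. It rose by 2.43 ± 0.65 (log2, adjusted p = 0.0314), with ethanol replicate 3 below control replicate 4, and without ethanol replicate 2 the estimate was the lowest of any left-out library, 1.21. Atp6ap2, also called the prorenin receptor, stood at 1.57, 3.88, 2.25 and 4.45 CPM in control and 7.93, 26.5, 3.40 and 8.65 CPM in ethanol libraries (1.92 ± 0.57, adjusted p = 0.0400). Again ethanol replicate 3 overlapped the controls, and without ethanol replicate 2 the estimate was 1.09 and did not pass (adjusted p = 0.0773).

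Dmxl1 encodes a rabconnectin, a large scaffold of the complex that puts the sectors together. Its levels were 7.07, 11.9, 8.74 and 8.62 CPM in control and 9.69, 26.5, 7.36 and 9.34 CPM in ethanol libraries, and it did not pass (0.54 ± 0.42, adjusted p = 0.382). Only ethanol replicate 2 lay above all controls, and without that library the estimate was -0.10.

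Of the carbonic anhydrases and ion transporters among the members only Car2 had enough counts to be tested. Car2, the cytosolic carbonic anhydrase of clear cells and red blood cells, was the 1 tested member with a negative estimate, -0.26 ± 0.46 (log2, adjusted p = 0.717). The estimate turned to 0.04 with deposited library totals and with summed feature totals. With exon features alone it was -1.09, at an unadjusted p under 0.05 by edgeR, and did not pass. The levels of Car2 were 3.93, 2.59, 4.74 and 3.89 CPM in control and 1.17, 5.26, 4.53 and 1.90 CPM in ethanol libraries, so ethanol values lay on both sides of the controls. Car12, a membrane carbonic anhydrase, had 1, 3, 1 and 2 counts in control and 3, 15, 2 and 2 in ethanol libraries and was too low to test. Car4, anchored on the outer membrane, had 17 counts, all in ethanol replicate 2. Its 0 counts in each control library allow up to 0.749 to 0.835 CPM (3 counts, counting error only).

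Slc9a3, the sodium-proton exchanger NHE3 of epididymal epithelium, had 5, 2, 0 and 3 counts in control and 20, 72, 2 and 1 in ethanol libraries, and was too low to test. Both ethanol libraries coded POM lay above all controls and both coded POEM lay within the control range. Slc4a4, a sodium bicarbonate cotransporter, had 2, 2, 3 and 2 counts in control and 3, 1, 1 and 0 in ethanol libraries, and on the CPM scale all ethanol libraries lay below all controls, at counts too low for a test.

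The 14 members that were not tested held 10 to 105 counts over all libraries. Apart from Car4, Car12, Slc9a3 and Slc4a4 they were Atp6v0a4, Atp6v0d2 and Tcirg1 of V0, Atp6v1b1, Atp6v1c2, Atp6v1e2, Atp6v1g2 and Atp6v1g3 of V1, and Atp6ap1l and Dmxl2 of the accessory group. Among them Tcirg1, the a subunit of osteoclasts, had 4, 2, 4 and 3 counts in control and 2, 1, 1 and 5 in ethanol libraries. Atp6v1e2, the E subunit of the testis and the acrosome, had 2, 0, 3 and 2 counts in control and 1, 0, 5 and 1 in ethanol libraries. At this depth no difference was detectable for either gene.

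Several subunits exist as a widely expressed form and as a form enriched in acid-secreting cells such as epididymal clear cells and kidney intercalated cells. The clear cell forms Atp6v0a4, Atp6v0d2, Atp6v1b1, Atp6v1c2 and Atp6v1g3 summed to 2, 4, 10 and 2 counts in control replicates 1 to 4 and to 32, 48, 5 and 7 counts in ethanol replicates 1 to 4. Ethanol replicates 1 and 2 stood above all other libraries, and ethanol replicates 3 and 4 lay within the control range. The counterparts Atp6v0a1, Atp6v0d1, Atp6v1b2, Atp6v1c1 and Atp6v1g1 summed to 64, 114, 71 and 129 counts in control and to 368, 710, 229 and 409 in ethanol libraries, with no overlap.

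The clear cell forms were thus a small part of the counts of both sets. Their share was 3.03% (exact 95% interval 0.369% to 10.5%), 3.39% (0.931% to 8.45%), 12.3% (6.08% to 21.5%) and 1.53% (0.185% to 5.41%) in control replicates 1 to 4. In ethanol replicates 1 to 4 it was 8.0% (5.54% to 11.1%), 6.33% (4.71% to 8.31%), 2.14% (0.697% to 4.92%) and 1.68% (0.679% to 3.44%). The ethanol shares fell inside the range of the control shares, and the intervals cover counting error only. In bulk samples fewer cells of a type and less RNA per cell cannot be told apart.

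**Figure D3:**
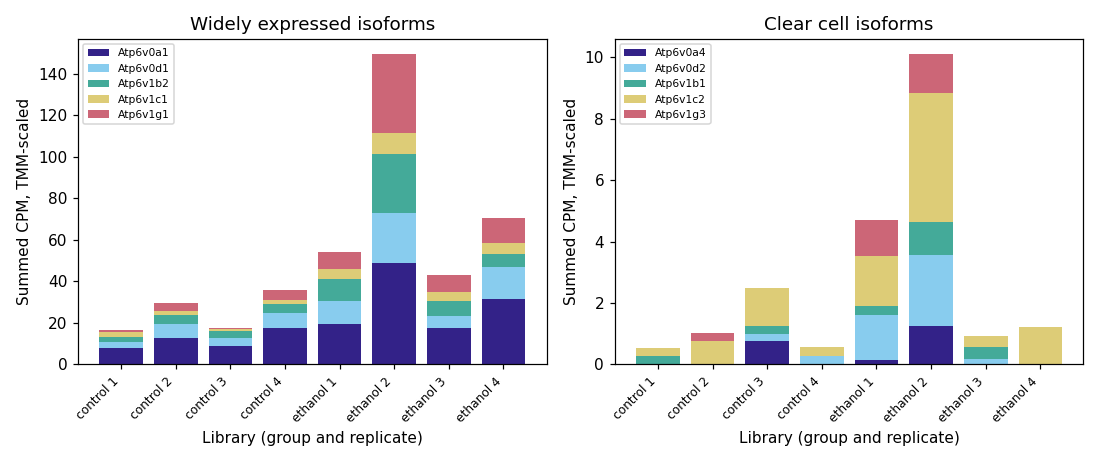
Summed TMM-scaled CPM of 5 widely expressed V-ATPase subunits (left) and of the 5 clear cell forms of the same subunits (right), with 1 stacked bar per library. The y axes differ: the left bars sum to 16.7 to 149 CPM and the right bars to 0.523 to 10.1 CPM, and ethanol replicate 2 is the tallest bar in both.

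To set different genes side by side, levels were divided by transcript length, which was found for 34 of the 35 members. Counts of short fragments were spread unevenly over exons, so these values compare genes only roughly. In control libraries the highest were Atp6v1f at 6.95 ± 1.89, Rnasek at 5.69 ± 2.81, Atp6v0a1 at 4.36 ± 1.68, Atp6v0b at 3.71 ± 0.729 and Atp6v0e at 3.49 ± 0.699 CPM per kilobase (SD, n = 4). The spreads of neighbours in this order overlap. In ethanol libraries the highest were Rnasek at 28.0 ± 17.7, Atp6v0e at 18.3 ± 9.26, Atp6v1g1 at 14.6 ± 12.6, Atp6ap1 at 13.7 ± 15.5 and Atp6v1f at 13.0 ± 8.60 CPM per kilobase, again with overlapping spreads. At the other end Atp6v0a4, Atp6v0d2 and Atp6v1g3 were at 0.0570, 0.0520 and 0.0343 CPM per kilobase in control libraries, and Car4 had no counts there.

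How far a member's counts were spread over its exons differed between genes. Atp6ap1 had counts in 7 of its 10 exon rows in control and in all 10 in ethanol libraries, and its largest exon row held 47.6% of control and 36.0% of ethanol counts. Atp6v1a had counts in 13 of 15 exon rows in control and 15 in ethanol libraries, with 67.8% and 45.4% in the largest. For Atp6v1h, with 14 exon rows, the largest held 16.0% and 14.1%. In Rnasek the largest of 3 exon rows held more of the counts in ethanol libraries, 73.8% against 56.6%.

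Introns of the same genes gave no change past the threshold. Of 34 members with intron rows 8 could be tested, and by edgeR 0 rose and 0 fell, with 0 at an unadjusted p under 0.05. Among all intron features 0.271% were higher and 1.88% lower, and 784 of 5159 had an unadjusted p under 0.05 by edgeR. The median log2 fold change of the 8 was 0.15, against -0.38 for all intron features tested. Atp6v0e introns stood at 3.66, 4.91, 2.25 and 3.62 CPM in control and 2.94, 1.68, 2.26 and 3.80 CPM in ethanol libraries (-0.42 ± 0.38, adjusted p = 0.458). Atp6v0d1 introns stood at 3.93, 3.36, 3.25 and 3.62 CPM in control and 2.50, 0.631, 2.26 and 2.25 CPM in ethanol libraries, all below the controls, and did not pass (-0.85 ± 0.40, adjusted p = 0.153). The difference between exon and intron fold changes was not tested. Introns of Atp6v0a1 include 3 rows with identical counts, which may repeat the same reads.

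**Figure D4:**
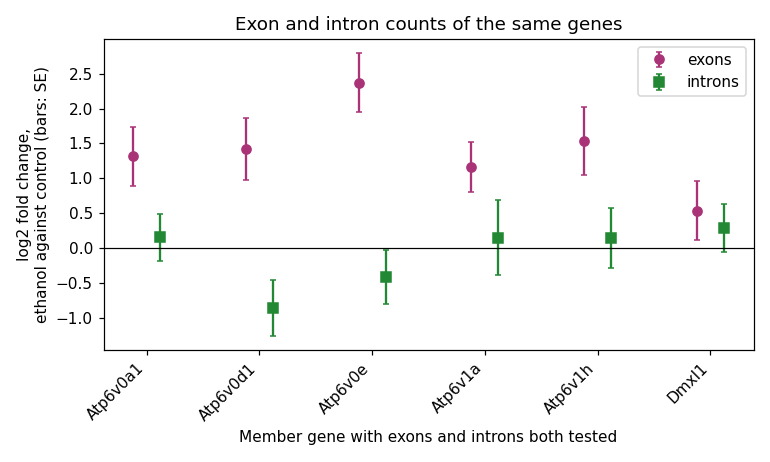
Log2 fold change of ethanol against control for exon counts (purple circles) and intron counts (green squares) of the 6 member genes in which both were tested, with bars for the standard error. Exon estimates of Atp6v0a1, Atp6v0d1, Atp6v0e, Atp6v1a and Atp6v1h lie above 1, and the intron estimates of the same genes lie between -0.85 and 0.15.

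Promoter sequences from RefSeq (GRCm38.p6) were available for 24 members, 8 of which rose. The 250 bases before each start site were searched on both strands for CACGTG, the core of the site bound by the lysosomal regulator TFEB and other E-box factors, for its longer form TCACGTG, for the GC box GGGCGG and for the letters TATAAA of the TATA box. Every match of the longer form is also a match of the shorter one. The core CACGTG was found in 3 of 30 member promoters and in 6.02% of 32851 promoters in the table, and the longer form in the same 3 and in 3.13% of all. The GC box was found in 63.3% of member promoters and 32.7% of all, and the TATA box letters in 3.33% and 12.4%. The 30 member promoters are not all separate: windows of Atp6v0c and of Tcirg1 overlap, so some GC boxes were counted more than once. Shown are the promoters of the 3 members with CACGTG (Atp6v1a, which rose, and Atp6v0b and Slc9a3), and that of Atp6v0e, the member with the smallest p. Capitals mark CACGTG and GGGCGG, the latter written CCGCCC where it lies on the other strand. The windows are chr16:44139260-44139509 on the minus strand for Atp6v1a, chr4:117887330-117887579 on the minus strand for Atp6v0b, chr13:74121163-74121412 on the plus strand for Slc9a3 and chr17:26676146-26676395 on the plus strand for Atp6v0e, each printed 5′ to 3′ along its gene.
Atp6v1a: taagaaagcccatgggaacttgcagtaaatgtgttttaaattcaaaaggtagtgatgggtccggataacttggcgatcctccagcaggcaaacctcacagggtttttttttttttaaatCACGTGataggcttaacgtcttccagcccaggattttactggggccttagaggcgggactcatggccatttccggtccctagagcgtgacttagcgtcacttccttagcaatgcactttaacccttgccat
Atp6v0b: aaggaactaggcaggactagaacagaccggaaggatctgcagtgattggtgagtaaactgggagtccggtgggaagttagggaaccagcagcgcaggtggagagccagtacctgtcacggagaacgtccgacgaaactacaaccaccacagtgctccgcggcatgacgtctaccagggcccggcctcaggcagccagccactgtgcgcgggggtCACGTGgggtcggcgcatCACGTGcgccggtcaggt
Slc9a3: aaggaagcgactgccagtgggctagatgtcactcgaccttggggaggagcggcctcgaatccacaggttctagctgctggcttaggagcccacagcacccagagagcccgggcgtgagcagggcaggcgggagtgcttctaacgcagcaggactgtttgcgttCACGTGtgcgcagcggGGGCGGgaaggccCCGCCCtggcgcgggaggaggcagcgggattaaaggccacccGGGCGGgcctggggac
Atp6v0e: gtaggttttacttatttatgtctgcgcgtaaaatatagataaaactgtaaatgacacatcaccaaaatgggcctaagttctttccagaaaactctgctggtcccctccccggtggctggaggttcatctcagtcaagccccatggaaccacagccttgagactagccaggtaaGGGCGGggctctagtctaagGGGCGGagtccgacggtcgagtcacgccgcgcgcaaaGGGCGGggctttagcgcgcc
The CACGTG of Atp6v1a begins 131 bases before the start site, those of Atp6v0b 36 and 18 bases before it, and that of Slc9a3 87 bases before it. Atp6v0e and Slc9a3 each hold 3 GGGCGG. A match describes the letters only, and the 3 members with CACGTG include 1 that rose, 1 that did not pass and 1 that was not tested.

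Other genes of the same processes were taken from lists of known function, chosen like the members with earlier results of these data known. By edgeR with exon features scaled among themselves 0 genes rose in the lists of acid-base transport, pump assembly, Ragulator and lysosomal genes. Of those tested 3 of 13, 1 of 5, 1 of 5 and 9 of 24 had an unadjusted p under 0.05, as did 2229 of all 7559 features. With all features the DESeq2 Wald test called 4 of 13, 1 of 4, 3 of 5 and 16 of 22 tested genes of these lists higher. It called 34.6% of mRNA exon features higher. By limma-voom 0 genes of these lists and 0% of mRNA exon features were higher. With exon features alone the median of the acid-base list was -0.02, that of pump assembly 0.28, of Ragulator 0.67 and of the lysosomal list 0.71, against 0.07 for mRNA exon features. Of 11 other genes of pump assembly and regulation 9 had rows and 4 were tested. The median difference of the 4 was 1.02 on the log2 scale in the edgeR fit of all features. Of the 4, 1 rose and 0 fell, where 23.8% of mRNA exon features rose. The 1 was Rogdi, a partner of the rabconnectins, at 2.09, 3.62, 3.25 and 4.73 CPM in control and 7.05, 12.4, 7.54 and 9.17 CPM in ethanol libraries (1.39 ± 0.37, adjusted p = 0.0314). Of 34 other acid-base transport genes 13 were tested, 3 rose and 0 fell, against that background of 23.8%. The median of the 13 was 0.73, which lies below the 0.88 of all mRNA exon features. Slc9a3r1, the scaffold that holds NHE3 at the apical membrane, rose by 3.30 ± 0.72 (log2, adjusted p = 0.0287), from 3.14, 9.31, 6.99 and 6.12 CPM in control to 32.6, 182.0, 14.9 and 23.7 CPM in ethanol libraries. Car5b, a mitochondrial carbonic anhydrase, rose by 1.91 ± 0.60 (adjusted p = 0.0468). The groups did not overlap for Rogdi, Slc9a3r1 or Car5b. Without ethanol replicate 2 Slc9a3r1 was at 1.83 and Car5b at 1.16, the latter no longer past the threshold (adjusted p = 0.101).

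The pump also serves lysosomes, where the Ragulator complex and the Rag GTPases sense nutrients through it. Of 10 genes of that list 5 were tested, 3 rose and 0 fell, where 23.8% of mRNA exon features rose. The median difference of the 5 was 1.58 on the log2 scale. Lamtor2 rose by 1.90 ± 0.53 (adjusted p = 0.0347), Lamtor1 by 1.58 ± 0.47 (adjusted p = 0.0404) and Rraga by 1.88 ± 0.59 (adjusted p = 0.0475). Of 30 lysosomal membrane proteins and hydrolases 22 were tested, 11 rose and 0 fell, with a median of 1.62, close to the 1.59 of the pump members. Lamp1, the main lysosomal membrane glycoprotein, stood at 10.7, 15.0, 14.7 and 17.5 CPM in control and 41.0, 218.9, 32.6 and 59.1 CPM in ethanol libraries (2.60 ± 0.58, adjusted p = 0.0287). Gaa, the hydrolase of lysosomal glycogen, rose by 2.08 ± 0.50 (adjusted p = 0.0287). Without ethanol replicate 2 Lamp1 was at 1.56, and Lamtor1 at 0.97 and Rraga at 0.86 no longer passed (adjusted p = 0.0952 and 0.167).

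Markers of epididymal principal cells, the main secretory cells of that epithelium, rose with the members. Of 9 markers tested 7 rose, where 23.8% of mRNA exon features did so, with a median log2 fold change of 3.67. The list had 25 markers, of which 24 had rows. Their summed level ran from 545.7 to 790.8 CPM in control libraries and was 3296, 18425, 1164 and 1643 CPM in ethanol replicates 1 to 4, with 2 to 9 of the 24 markers that have rows at 0 per control library and 0 to 2 per ethanol library. Crisp1, a sperm-binding secreted protein, stood at 347.3 to 635.0 CPM in control and at 2374, 9631, 769.9 and 1138 CPM in ethanol libraries (2.83 ± 0.71, adjusted p = 0.0292). Cd52 (3.67 ± 0.79, adjusted p = 0.0287) and Ces5a (5.18 ± 1.38, adjusted p = 0.0359) rose as well. Without ethanol replicate 2 Crisp1 was at 1.48, Cd52 at 1.96 and Ces5a at 1.99, the last no longer past the threshold (adjusted p = 0.137). With exon features alone none of the 3 passed (Crisp1 1.75, adjusted p = 0.117, Cd52 2.48, adjusted p = 0.0618, Ces5a 3.77, adjusted p = 0.0658). With exon features alone 0 of 10 tested markers of the list rose by edgeR, with a median of 2.12 and 7 at an unadjusted p under 0.05. With all features the DESeq2 Wald test called 3 of the 9 higher, where 34.6% of mRNA exon features were, and 3 had an unadjusted p under 0.05. By limma-voom 0 passed, as did 0% of mRNA exon features, though 9 had an unadjusted p under 0.05. The part of principal cells' RNA in the members' result was not tested.

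Clear cell markers, of which 5 of 9 are themselves members, were all too low to test. Their sum was 1.39 to 4.74 CPM in control and 8.22, 15.8, 2.08 and 3.29 CPM in ethanol replicates 1 to 4, with 2 to 5 of 9 at 0 per control library and 0, 1, 3 and 6 at 0 in ethanol replicates 1 to 4. Foxi1, the transcription factor that defines these cells, was at 0.523, 0.259, 0 and 0.278 CPM in control and 0.881, 1.26, 0.189 and 0.346 CPM in ethanol libraries, named after its values were seen. Of 7 genes listed for basal cells 2 were tested. Cldn4 rose (1.70 ± 0.44, adjusted p = 0.0298), though not with exon features alone (0.85, adjusted p = 0.0952). Trp63 did not pass (0.45 ± 0.39, adjusted p = 0.429), and Krt5, Krt14 and Krt15 were too low to test. A rise of basal cell markers as a set is therefore not shown. Sperm markers checked the labelled cell type: of 22, 20 were tested, by edgeR 0 rose and 0 fell, their median was -0.53 and they summed to 756.9 to 982.7 CPM in control and 305.8 to 853.1 CPM in ethanol libraries. Smcp, a capsule protein of sperm mitochondria, was below all controls in every ethanol library but did not pass by edgeR (-0.93 ± 0.41, adjusted p = 0.126), while the DESeq2 Wald test called it lower (adjusted p = 0.0183), and Odf1, of the tail, did not pass either (-0.54 ± 0.43, adjusted p = 0.384). By edgeR 2 of the 20 had an unadjusted p under 0.05, where 3266 of 6545 mRNA exon features did. The Wald test called 2 lower and limma-voom 0. With exon features alone, by edgeR, 0 sperm markers rose and 0 fell, but their median was -1.18. In that setting 17 of the 20 had an unadjusted p under 0.05, as did 2229 of all 7559 features tested.

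Of 17 blood and immune markers 7 were tested. The hemoglobin genes Hba-a1 and Hba-a2, near-identical copies that can share reads, fell by 2.02 and 2.01 on the log2 scale (adjusted p = 0.0287 and 0.0292), and Ltf, which neutrophils and secretory epithelia make, rose by 4.04 ± 1.16 (adjusted p = 0.0427). Without ethanol replicate 2 Ltf was at 1.92 and did not pass (adjusted p = 0.307), and without ethanol replicate 4 the hemoglobin genes were at -2.75 and -2.86. With exon features alone Ltf did not pass (2.78, adjusted p = 0.0876), and both hemoglobin genes did. In that setting all 7 tested markers had an unadjusted p under 0.05 by edgeR, and the median of the list was -2.23. With all features the DESeq2 Wald test called 4 of the 7 lower and 1 higher, and limma-voom 0. Without Ltf the other 16 markers summed to 36.4 to 65.4 CPM in control and to 28.9, 41.9, 13.8 and 40.6 CPM in ethanol replicates 1 to 4. With it the sums were 51.3 to 82.4 CPM in control and 182.1, 900.0, 33.0 and 63.1 CPM in ethanol replicates 1 to 4. Of 11 muscle, stroma and endothelium markers 9 were tested, with a median of -0.83, and by edgeR 0 rose and 0 fell. There 1 had an unadjusted p under 0.05, Col1a1 (-1.23 ± 0.43, adjusted p = 0.0690), named after its values were seen. The DESeq2 Wald test called 1 lower and limma-voom 0. With exon features alone, by edgeR, 0 of the 9 rose and 0 fell, but their median was -1.52. In that setting all 9 had an unadjusted p under 0.05, as did 2229 of all 7559 features tested. The list had sums of 67.6 to 157.5 CPM in control and 32.9 to 87.3 CPM in ethanol libraries. Myh11, of smooth muscle, was at -0.98 ± 0.51 (adjusted p = 0.188), and Dcn, of stroma, at -0.01 ± 0.47 (adjusted p = 0.987), a sign that changed with the scaling. The part of these cells in the members' result was not tested.

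**Figure D5:**
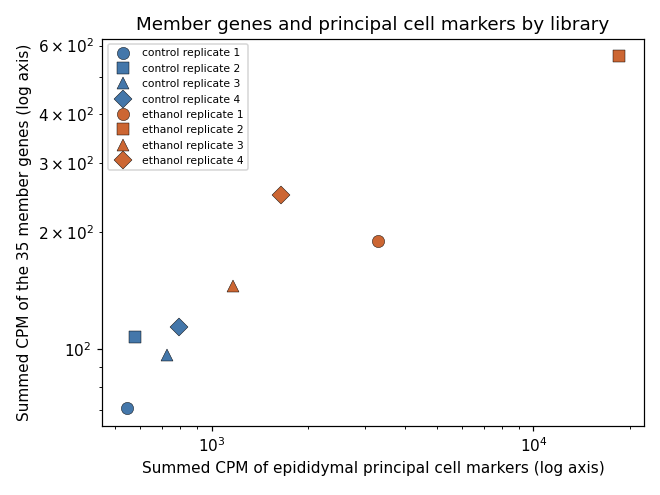
Summed TMM-scaled CPM of the 24 epididymal principal cell markers that have rows in the table (x axis, log scale) against that of the 35 member genes (y axis, log scale), 1 point per library, blue for control and orange for ethanol. Control libraries lie at the lower left, at 70.7 to 114.3 CPM of members, and ethanol replicate 2 at the upper right, at 562.9 CPM of members and 18425 CPM of markers.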

How the data were processed

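Small RNA of mouse sperm was compared between 4 control and 4 ethanol libraries, grouped by sample title. Trizol extraction and Qiaseq library reagents were used, per the labels' protocols. What the authors deposited is a single table of unnormalized counts, whole numbers for each feature in each library. The aligner, counting rule, strand setting, use of molecular identifiers and genome build of the table are not given in the sources used here. For that reason counts carry no gene coordinates. The 1078961 rows were brought to 45090 features, summed by name and RNA class, with exon rows summed per gene symbol. The piRNA cluster rows were not summed: where names differed only in a final number, the row with the most counts was kept. Deposited library totals include the rows left out. The members have 332 exon rows, and none names another gene. The test was edgeR 4.0.16 under R 4.3.3 (TMM, filterByExpr with minimum count 10, robust quasi-likelihood fit, group as the only term), with Benjamini-Hochberg adjustment over 13515 features and a threshold of 0.05. Of these 1842 passed, 1605 higher and 237 lower. The standard error is the log2 fold change over the square root of F.

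The members and lists were chosen with earlier results of these data known. Named with values in each library were the members past the threshold with the 12 smallest p and the 2 of each role with the highest mean CPM; from other lists, up to 3 genes past the threshold by smallest p, otherwise the 2 with the highest mean CPM. Other members are given by range or count. Some genes that this rule names in the other lists are not reported here. Lists are described by counts and medians, with no set test. Transcript lengths were taken from GENCODE M21 through RefSeq accessions. Alternatives were other scalings, DESeq2 1.42.0, limma-voom (limma 3.58.1), other filters, the replicate number as a block, exon features alone, other row sums and left-out libraries; a single transcript per gene and summed feature totals were added after seeing the data. The fit was tested on simulated counts. Replicates of a group differed by a chi-square of 9.22 to 122 per degree of freedom, so none repeated the counts of another in its group. Control and ethanol libraries were not compared this way, and separate libraries of the same sample cannot be told from it. Python 3.11.15 (pandas 2.3.3, numpy 2.4.6, matplotlib 3.10.9, scipy 1.17.1) served for intervals, motifs and figures.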

Additional observations from a re-analysis of the deposited data

Results flagged for a closer look

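In each group of 4 libraries the highest and the lowest value of each member gene were compared with the other 3, and 13 of 70 groups held a library far from the rest of its group. The limit used is one that chance passes in about 1 in 20 groups of independent, normally spread values. These groups share the same 8 libraries, and a gene with counts in a single library of a group passes it in any case. In 8 of the 13 it was ethanol replicate 2 that lay highest: Atp6ap1 at 80.6 CPM, Atp6v1g1 at 37.9 CPM, Dmxl1 at 26.5 CPM, Atp6v1f at 18.1 CPM, Atp6v1c1 at 10.1 CPM, Car4 at 3.58 CPM, Car12 at 3.16 CPM and Atp6v0a4 at 1.26 CPM. In ethanol replicate 4 Tcirg1 lay highest of its group, at 0.865 CPM. Among controls, replicate 3 was highest for Atp6v0a4 and for Slc4a4, both at 0.749 CPM, replicate 2 was highest for Atp6v1g3 at 0.259 CPM, and replicate 1 was lowest for Atp6v1g2 at 0.0 CPM. Those last 5 values rest on 5 counts or fewer in the library named.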

How the results depend on the processing

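The 14 members called in the comparison of all libraries, out of 1842 features, were 10 with DESeq2 size factors (1200 features) and 14 with summed feature totals (1703). With deposited library totals they were 0 (2 features, smallest adjusted p of a member by edgeR 0.0519). The DESeq2 Wald test called 15 (3144) and limma-voom 0 (8). A minimum count of 1 gave 11 of 27 members tested, a minimum of 20 gave 12 of 15, and no filter 15 of 35. Those 3 settings called 1966 of 29501, 1211 of 7810 and 3451 of 45082 features, and 12.7%, 27.6% and 15.1% of mRNA exon features were higher. Exon features alone gave 1 (55), protein-coding rows only 13 (1756) and a single transcript per gene 14 (1830). The share of mRNA exon features higher was 14.8% with DESeq2 size factors, 0% with deposited totals and 23.7% with summed feature totals. It was 23.4% with protein-coding rows only and 24.2% with a single transcript. With deposited library totals, by edgeR, 18 of 21 members had an unadjusted p under 0.05, as did 4473 of all 13515 features, every RNA class together. Without the ethanol libraries coded POM 5 members were called (818 features) and without those coded POEM 15 (3317). Leaving out each library gave 0 to 16 members and 3 to 3569 features. No member was called lower in any of these settings. Deposited totals moved the median log2 fold change of all features from -0.01 to 0.24, and the members' median was then 1.99 against 1.24 for mRNA exon features. Summed member CPM was 1187 in control and 1855 in ethanol libraries when scaled among exon features alone.

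Same-numbered libraries deviated together in 2 of 4 pairs (correlations 0.31, 0.20, -0.12 and -0.02). With so few libraries these values cannot settle whether the numbers pair the samples, and the labels do not say. With the replicate number as a block 15 members and 3294 features were called, and 37.1% of mRNA exon features were higher. Ethanol replicates 1 and 2 each correlated best with the control of the same number. Ethanol replicate 3 correlated best with control replicate 1 (0.37) and ethanol replicate 4 with control replicate 2 (0.12), so not every library correlated best with its own number.

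Among the named genes signs changed for 5, none of which passed. Car2 was 0.038 with deposited totals and 0.0358 with summed feature totals, and -0.68 to 0.0359 with each library left out (highest without ethanol replicate 1). With exon features alone Atp6v0a2 was -0.24, Atp6v1f -0.0378 and Dmxl1 -0.37. Dmxl1 was -0.13 without the POM libraries and -0.10 to 0.67 with each library left out (lowest without ethanol replicate 2). Dcn was 0.0075 with DESeq2 size factors, 0.41 with deposited totals, 0.40 with summed feature totals, 0.01 with the DESeq2 Wald test, 0.0201 with a minimum count of 20, 0.0064 with no filter, 0.022 with a single transcript, 0.18 without the POEM libraries and -0.77 to 0.24 with each library left out (above 0 without ethanol replicates 1 and 3). The cause of these changes was not tested. Tested members held 3 to 64 counts per control library and 8 to 383 per ethanol library, which limits their precision.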
